A study of Mus musculus with 24 samples.

Results

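The genes described here encode 10 serotonin (5-hydroxytryptamine) receptors: Htr1a, Htr1b, Htr1d, Htr2a, Htr2c, Htr4, Htr5a, Htr5b, Htr6 and Htr7. They were taken by gene symbol from 19937 genes with a probe set of their own on the array, and each of the 10 had 1 such probe set. RNA came from the whole hypothalamus of 24 male mice, with 1 mouse on each Affymetrix Mouse Gene 1.0 ST array. The inbred strain BPH/2J is hypertensive, and BPN/3J is its normotensive comparison strain. There were 4 groups of 6 mice, BPH/2J and BPN/3J at 6 weeks (young) and both strains at 26 weeks (adult). Tissue was taken when the daily blood pressure cycle was at its peak, no animals were pooled, and the labels name standard housing as the treatment and no engineered allele. The design text once names the normotensive strain BPN/2J, and the sample labels name it BPN/3J, which is used here. Values are log2 values made by RMA, in which 1 unit is a doubling of signal.

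Serotonin is made by neurons of the brainstem raphe nuclei, whose axons reach the whole forebrain, and most of its receptors are proteins that signal through G proteins. Htr1 receptors couple to Gi and lower cyclic AMP, Htr2 receptors couple to Gq and phospholipase C, and Htr4, Htr6 and Htr7 couple to Gs and raise cyclic AMP. Htr5a couples to Gi, and the coupling of Htr5b is less well known. In the hypothalamus, serotonin acts on feeding, hormone release, body temperature, sleep and the sympathetic control of the circulation.

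The promoters of Htr5a and Htr1d are shown because these genes, with Htr2c, were lower in BPH/2J when the strain differences of both ages were averaged. All 3 sequences are from RefSeq, build GRCm38.p6, and each line holds the 250 bases before an annotated start, on the strand of the gene (+). The Htr5a promoter lies at chr5:27841697-27841946, and the Htr1d promoters, for 2 annotated starts, at chr4:136423274-136423523 and chr4:136424362-136424611. Capitals mark matches on either strand to GGGCGG (the GC box) and to the motif CCAAT.
Htr5a: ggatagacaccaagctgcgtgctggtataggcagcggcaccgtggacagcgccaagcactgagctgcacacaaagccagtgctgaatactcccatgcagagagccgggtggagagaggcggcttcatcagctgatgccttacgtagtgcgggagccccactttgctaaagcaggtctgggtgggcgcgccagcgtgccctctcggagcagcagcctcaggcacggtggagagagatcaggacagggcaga
Htr1d, first start: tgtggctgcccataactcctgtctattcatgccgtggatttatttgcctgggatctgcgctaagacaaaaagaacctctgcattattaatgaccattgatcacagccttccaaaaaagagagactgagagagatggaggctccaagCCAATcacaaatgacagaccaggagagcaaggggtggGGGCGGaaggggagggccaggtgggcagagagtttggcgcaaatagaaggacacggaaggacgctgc
Htr1d, second start: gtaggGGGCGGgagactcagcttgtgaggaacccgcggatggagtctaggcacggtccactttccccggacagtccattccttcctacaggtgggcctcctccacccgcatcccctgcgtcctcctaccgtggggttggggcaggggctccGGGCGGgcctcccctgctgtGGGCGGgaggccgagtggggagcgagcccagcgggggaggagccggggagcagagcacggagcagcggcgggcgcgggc
The search covered 6 motifs on both strands. GGGCGG was in 32.7% of all 32851 promoters of this length and CCAAT in 33.8%. TATAAA, the core of the TATA box, was in 12.4%, and CACGTG, a form of the E box, in 6.0%. TGACGTCA (cyclic AMP response element) was in 1.5% and TTCAGCACC (a part of the neuron-restrictive silencer element) in 0.3%. No motif is contained in another. The Htr5a promoter held none of the 6, with a GC content of 62.0% against a median of 52.4% over all promoters. The first Htr1d promoter held 1 GC box and 1 CCAAT motif at 51.6% GC, and the second held 3 GC boxes at 72.4% GC. Of 10 promoters listed for 8 of the receptor genes, 5 held a GC box, 3 a CCAAT motif and 0 any of the other motifs. These matches describe the letters of the reference strain only.

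All 10 receptor genes lay above the median of the unnamed probe sets on all 24 arrays (array medians 4.6 to 5.25). Array medians over all genes were 6.7 to 6.84. Htr1d (5.54 to 6.31), Htr5b (5.09 to 6.53) and Htr6 (5.37 to 6.00) lay below these on every array, nearer the unnamed medians. Levels of different genes come from different probes and are otherwise not compared. The mean correlation of the arrays of a group with each other was 0.990 to 0.996, and differences between groups had a standard error of 0.09 log2 units at the median over all genes. Hypothalamic markers were present: Pmch, the precursor of melanin-concentrating hormone, ranged from 11.31 to 12.73, and Hcrt, the orexin precursor, from 7.29 to 11.21. Regional content differed between arrays. The mean of 14 thalamus markers was 7.44 to 9.10 in 6-week BPH/2J mice, 9.08 to 9.43 in 6-week BPN/3J, 9.09 to 9.36 in 26-week BPH/2J and 8.64 to 9.49 in 26-week BPN/3J. All 14 were called lower in BPH/2J at 6 weeks, with a median difference of -0.99, against 7.42% of all genes called. All 14 rose with age in BPH/2J, against 16.9% of all genes called. Of 19 hypothalamus markers, 10 were called higher in BPH/2J at 6 weeks and 0 lower, against the same 7.42%. Over all arrays the choroid plexus marker mean ran from 5.37 to 7.88, striatum from 7.49 to 9.06, and cortex and hippocampus from 6.74 to 7.95. At 26 weeks, 4 arrays (replicates 5 and 6 of both strains) stood apart from the other 8 on the first principal component, which held 41.9% of the variance within the 26-week groups. A lower value in bulk tissue can come from fewer cells of a type or from less RNA per cell, and these cannot be told apart here. Each receptor gene was read by 1 probe set. Whether the strains differ in sequence under its probes was not tested.

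**Figure D1:**
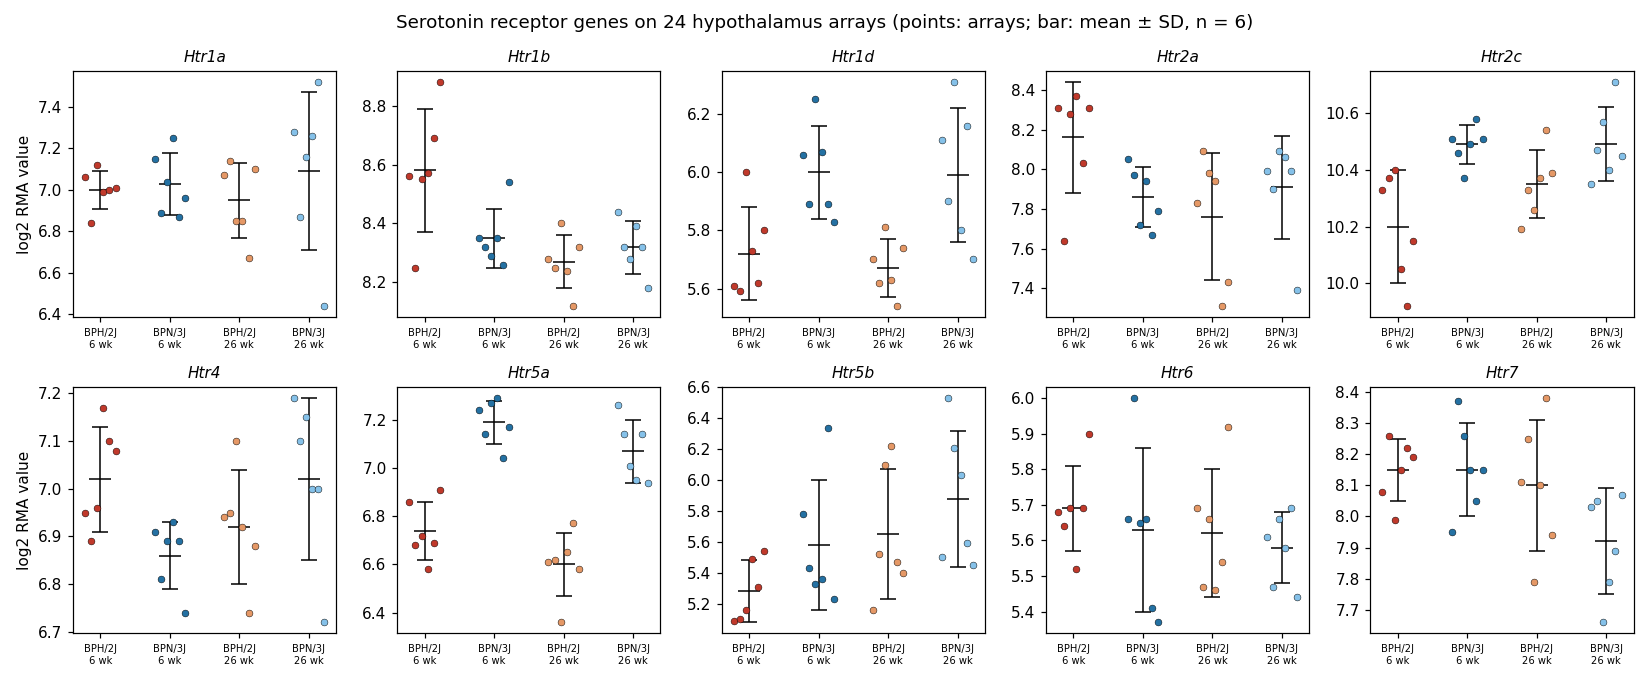
Level of each of the 10 receptor genes (log2 RMA value, y axis, own scale per gene) on each of 24 arrays, by strain and age (x axis); points are arrays and bars the mean ± SD of n = 6. Htr5a is the gene whose 12 BPH/2J points, at most 6.91, all lie below its 12 BPN/3J points, at least 6.94.

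The first comparison asked which receptors differ between young hypertensive and young normotensive mice. At 6 weeks, 2 of 10 receptor genes passed the test, Htr5a and Htr2c, both lower in BPH/2J, and 0 were higher. Over all 19937 genes 7.42% passed, 4.42% as lower. The test was limma's moderated statistic with a Benjamini-Hochberg adjusted p below 0.05 over all genes. At an unadjusted p below 0.05 it was 6 of 10 receptor genes against 18.1% of all genes. The signs were mixed, with 4 receptor genes positive and 6 negative, and the median difference was -0.01 against 0.01 over all genes. The median size of the difference regardless of sign was 0.25 for the receptors and 0.08 over all genes.

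At 26 weeks, 1 of 10 receptor genes passed, again Htr5a and again lower in BPH/2J, against 2.67% of all genes, 1.34% as lower. Here 8 of 10 receptor genes had a negative difference, with a median of -0.14 against 0.01 over all genes. At an unadjusted p below 0.05 it was 2 of 10 receptor genes (Htr5a and Htr1d) against 12.5% of all genes. When the strain differences at both ages were averaged in the same fit, a contrast added after the data were seen, 3 of 10 receptor genes passed, all lower in BPH/2J, against 7.80% of all genes, 4.14% as lower. These were Htr5a, Htr1d and Htr2c.

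**Figure D2:**
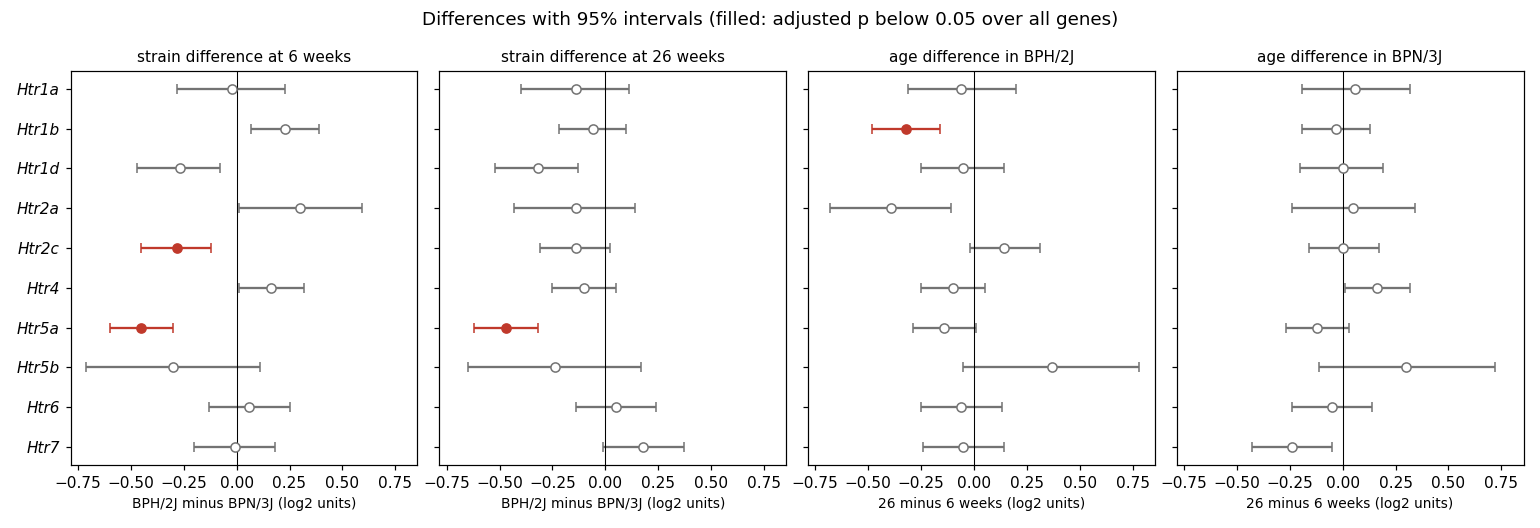
Difference of each receptor gene (x axis, log2 units, with its 95% interval) in 4 comparisons, BPH/2J minus BPN/3J at each age and 26 minus 6 weeks in each strain. Filled points passed the test over all genes: Htr5a (-0.45) and Htr2c (-0.28) at 6 weeks, Htr5a (-0.47) at 26 weeks, and Htr1b (-0.32) with age in BPH/2J.

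Htr5a, a Gi-coupled receptor found mainly in the brain, showed the clearest strain difference of the 10. At 6 weeks its lowest, median and highest levels were 6.58, 6.71 and 6.91 in BPH/2J and 7.04, 7.21 and 7.29 in BPN/3J. At 26 weeks they were 6.36, 6.62 and 6.77 in BPH/2J and 6.94, 7.08 and 7.26 in BPN/3J. Every BPH/2J array was thus below every BPN/3J array at both ages, and over the 12 arrays of each strain too. Groups without overlap and lower in BPH/2J were found in 2.78% of all genes at 6 weeks, 0.883% at 26 weeks and 0.366% over both ages. The difference was -0.45 ± 0.07 log2 units (SE, n = 6 per group, limma adjusted p = 0.000206) at 6 weeks. At 26 weeks it was -0.47 ± 0.07 (limma adjusted p = 0.000143), which is 1.39-fold lower.

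The strain by age interaction for Htr5a was -0.02 ± 0.10, with a 95% interval from -0.24 to 0.19. The averaged strain difference was -0.46 ± 0.05 (limma adjusted p = 4.93e-07), the rank of which by p was 111 among all genes. Htr5a passed in all 24 fits that left out 1 array, at each age. With age it differed by -0.14 ± 0.07 in BPH/2J and by -0.12 ± 0.07 in BPN/3J, and neither passed (limma adjusted p = 0.189 and 0.284). The order of group means was BPN/3J at 6 weeks (7.19), BPN/3J at 26 weeks (7.07), BPH/2J at 6 weeks (6.74) and BPH/2J at 26 weeks (6.60). In that order, the arrays of neighbouring groups overlapped except between BPN/3J at 26 weeks and BPH/2J at 6 weeks.

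With the thalamus marker mean of each array as a covariate, the Htr5a difference was -0.51 ± 0.11 at 6 weeks (limma adjusted p = 0.0237) and -0.47 ± 0.07 at 26 weeks (0.000192). Within the larger set of 26-week arrays it was -0.53 ± 0.09 (limma adjusted p = 0.000562). Within the smaller set, with 2 arrays per strain, it was -0.36 ± 0.12 and did not pass (limma adjusted p = 0.16). Of the 5 analysed genes on each side of Htr5a, 0 passed in limma's test at either age, with 2 of 10 at an unadjusted p below 0.05 at each age. Over all genes 7.42% passed at 6 weeks and 2.67% at 26 weeks, with 18.1% and 12.5% at an unadjusted p below 0.05. Counts of 10 genes are thus near the share of all genes. At 6 weeks the nearest neighbour of Htr5a, Paxip1, which codes for a DNA repair adaptor, differed by -0.03 ± 0.05. Insig1, a regulator of sterol synthesis on the other side, differed by -0.21 ± 0.10.

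**Figure D3:**
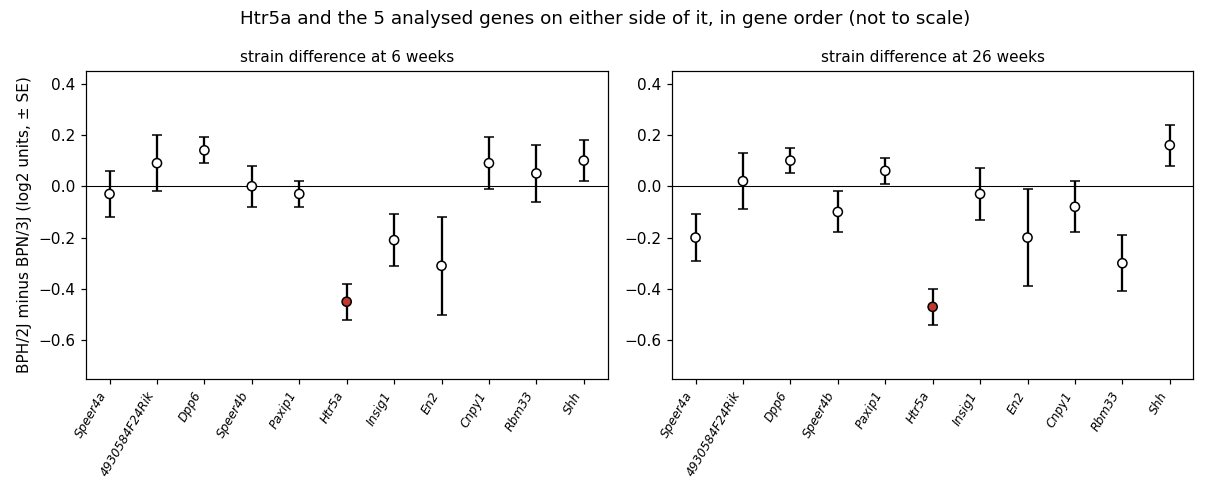
Strain difference (BPH/2J minus BPN/3J, log2 units ± SE, y axis) of Htr5a and the 5 analysed genes on either side of it, in gene order and not to scale, at 6 weeks (left) and 26 weeks (right). Htr5a is the filled point in both panels, at -0.45 and -0.47; the open points did not pass the test.

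Htr2c, a Gq-coupled receptor known for restraining food intake and whose RNA is edited by adenosine deaminases, was the other gene that passed at 6 weeks. Its lowest, median and highest levels at 6 weeks were 9.92, 10.24 and 10.40 in BPH/2J and 10.37, 10.50 and 10.58 in BPN/3J. Only the upper end of BPH/2J reached the lowest BPN/3J array. The difference was -0.28 ± 0.08 (limma adjusted p = 0.0294), 1.22-fold lower. At 26 weeks levels were 10.19, 10.35 and 10.54 in BPH/2J and 10.35, 10.46 and 10.71 in BPN/3J. The groups overlapped widely, and the difference of -0.14 ± 0.08 did not pass (limma adjusted p = 0.499).

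Over the 24 fits that left out 1 array, the 6-week difference of Htr2c ran from -0.32 to -0.22. The call, near the threshold, was kept in 17 of them. It was lost without BPH/2J replicate 4 (-0.25, limma adjusted p = 0.0852), 5 (-0.22, 0.0959) or 6 (-0.27, 0.0562). It was also lost without BPN/3J replicate 1 (-0.28, limma adjusted p = 0.0565), 4 (-0.28, 0.0516), 5 (-0.26, 0.0784) or 6 (-0.28, 0.0589). With the thalamus covariate the 6-week difference was -0.38 ± 0.12 and did not pass (limma adjusted p = 0.232). The averaged difference of -0.21 ± 0.06 passed (limma adjusted p = 0.0181) and did so in all 24 fits that left out 1 array. With the raphe marker mean as a covariate the averaged difference was -0.17 ± 0.06 (limma adjusted p = 0.0672). The interaction was 0.14 ± 0.11 (limma adjusted p = 0.73). Among the 5 analysed genes on each side of Htr2c, 1 passed at 6 weeks, against 7.42% of all genes. This was Trpc5, a cation channel, higher in BPH/2J by 0.44 ± 0.11 (limma adjusted p = 0.0131).

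Htr2a, the other Gq-coupled receptor of the set and the main cortical target of hallucinogens, spread widely over arrays. At 6 weeks its lowest, median and highest levels were 7.64, 8.29 and 8.37 in BPH/2J and 7.67, 7.86 and 8.05 in BPN/3J. In adult mice they were 7.31, 7.88 and 8.09 in BPH/2J and 7.39, 7.99 and 8.09 in BPN/3J. The groups overlapped at both ages, and the lowest 6-week BPH/2J array, replicate 2, lay below all BPN/3J arrays of that age. The strain difference was 0.30 ± 0.14 at 6 weeks (limma adjusted p = 0.244) and -0.14 ± 0.14 at 26 weeks (0.772), with an interaction of -0.44 ± 0.20 (0.397). With age the level in BPH/2J differed by -0.39 ± 0.14, just short of the threshold (limma adjusted p = 0.0526). It passed without BPH/2J replicate 2 at 6 weeks (-0.50, limma adjusted p = 0.0104), BPH/2J replicate 2 at 26 weeks (-0.46, 0.0371) or BPN/3J replicate 6 at 26 weeks (-0.39, 0.0299). With a term for the 26-week array set it was -0.24 ± 0.12 (limma adjusted p = 0.112), and the lowest adult BPH/2J arrays, at 7.31 and 7.43, are the 2 of the smaller set. That term applies to the smaller set alone. For every gene, an age difference fitted with it thus sets the level of the larger set against the 6-week arrays.

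That 6-week BPH/2J replicate 2, low in Htr2a, had the highest thalamus marker mean of its group, 9.10 against 7.44 to 8.42. With the thalamus covariate the Htr2a age difference in BPH/2J was 0.07 ± 0.18 (limma adjusted p = 0.924) and the 6-week strain difference -0.14 ± 0.18 (0.999). Within groups, the deviations of Htr2a from the group mean correlated with those of the thalamus marker mean at r = -0.58 and rho = -0.61 (24 arrays). Without the 2 arrays farthest from the median of the marker mean r was -0.42. After adjustment over the 130 relations of receptor genes with marker lists, rho passed and r did not (permutation test, adjusted p = 0.0357 and 0.0528). Over the 12 arrays of 6 weeks r was -0.77, and over the 8 arrays of the larger 26-week set -0.72. Other marker lists moved with Htr2a too. Endothelium markers had r = 0.58 and rho = 0.70 (permutation test, adjusted p = 0.0528 and 0.00823), microglia markers r = 0.60 and rho = 0.56 (0.0528 and 0.0491), and astrocyte markers r = 0.51 and rho = 0.56 (0.0952 and 0.0491). Without the 2 farthest arrays their r was 0.59, 0.54 and 0.47, and over the 12 arrays of 6 weeks 0.51, -0.08 and 0.26. In the larger 26-week set it was 0.28, 0.37 and 0.52 over 8 arrays. The part of these markers in the Htr2a differences was not tested. The gene most like Htr2a over arrays was Chrm5, a muscarinic acetylcholine receptor (r = 0.90).

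Of the Gi-coupled Htr1 genes, Htr1d, a receptor on serotonin and trigeminal nerve endings, passed in the strain difference averaged over ages and not at either age alone. At 6 weeks its lowest, median and highest levels were 5.59, 5.68 and 6.00 in BPH/2J and 5.83, 5.98 and 6.25 in BPN/3J. At 26 weeks they were 5.54, 5.66 and 5.81 in BPH/2J and 5.70, 6.00 and 6.31 in BPN/3J. The overlap came from 1 high BPH/2J array at 6 weeks and 2 low BPN/3J arrays at 26 weeks. The difference was -0.27 ± 0.09 at 6 weeks (limma adjusted p = 0.0851) and -0.32 ± 0.09 at 26 weeks (0.0699), neither past the threshold. It passed at 6 weeks without BPH/2J replicate 3 (-0.33, limma adjusted p = 0.0407) and at 26 weeks without BPN/3J replicate 6 (-0.38, 0.0199).

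Averaged over ages, the Htr1d difference was -0.30 ± 0.07 (limma adjusted p = 0.00445), 1.23-fold lower in BPH/2J, and this passed in all 24 fits that left out 1 array. The interaction was -0.05 ± 0.13, and the age differences were -0.05 ± 0.09 in BPH/2J and -0.00 ± 0.09 in BPN/3J. With the thalamus covariate the averaged difference was -0.40 ± 0.08 (limma adjusted p = 0.00278), and with the raphe marker mean as a covariate it was -0.23 ± 0.07 (0.0233). The raphe covariate gave -0.23 ± 0.09 at 6 weeks (limma adjusted p = 0.131) and -0.24 ± 0.09 at 26 weeks (0.145). Within groups Htr1d correlated with the raphe marker mean at r = 0.47 and rho = 0.62 (24 arrays, permutation test adjusted p = 0.105 and 0.034), and r was 0.53 without the 2 farthest arrays. Over the 12 arrays of 6 weeks r was 0.41 and over the 8 of the larger 26-week set 0.57. Tph2, a defining gene of the raphe list, lay below the unnamed median on all but 2 of the 24 arrays. Whether the raphe marker mean follows raphe content on the other arrays was not tested, for this or any other receptor gene. Of 8 raphe markers, 1 was called lower in BPH/2J averaged over ages and 0 higher, against 7.80% of all genes called. Their median difference was -0.40, and their part in the Htr1d difference was not tested. At 6 weeks, 2 of the 10 analysed neighbours of Htr1d passed, both lower in BPH/2J, against 7.42% of all genes, 4.42% as lower. Luzp1, next to it, which codes for a leucine zipper protein, differed by -0.36 ± 0.08 and C1qb, a chain of complement C1q made by microglia, by -0.51 ± 0.15. At 26 weeks 0 of the 10 passed in limma's test, against 2.67% of all genes. At an unadjusted p below 0.05 it was 2 (the same genes, Luzp1 and C1qb), against 12.5% of all genes.

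Htr1b, which codes for an autoreceptor on nerve endings, was the only 1 of the 10 receptor genes that passed with age. In BPH/2J its lowest, median and highest levels were 8.25, 8.57 and 8.88 at 6 weeks and 8.12, 8.27 and 8.40 at 26 weeks. In BPN/3J they were 8.26, 8.33 and 8.54 at 6 weeks and 8.18, 8.32 and 8.44 at 26 weeks. The young BPH/2J arrays were the high ones, except replicate 2, which lay within the range of the older mice. In BPH/2J, Htr1b fell with age by 0.32 ± 0.08 log2 units (limma adjusted p = 0.00723), a call kept in all 24 fits that left out 1 array. In BPN/3J the difference was -0.03 ± 0.08 (limma adjusted p = 0.842).

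In the age comparison of BPH/2J, 1 of 10 receptor genes thus passed, as lower, against 16.9% of all genes, 8.64% as lower. At an unadjusted p below 0.05 it was 2 of 10 (Htr1b and Htr2a) against 31.6% of all genes. In BPN/3J it was 0 of 10 against 12.3% of all genes, and 2 of 10 (Htr4 and Htr7) at an unadjusted p below 0.05 against 29.3%. The interaction passed in 0 of 10 receptor genes and in 0.0301% of all genes, 6 in number. At an unadjusted p below 0.05 it was 3 of 10 (Htr1b, Htr2a and Htr4) against 10.8%. For Htr1b the strain difference was 0.23 ± 0.08 at 6 weeks (limma adjusted p = 0.0742) and -0.06 ± 0.08 at 26 weeks (0.863), and the interaction -0.29 ± 0.11 (0.294). The strain difference at 6 weeks and the age difference in BPH/2J share the young BPH/2J arrays.

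Leaving out the BPH/2J replicate 2 of 6 weeks moved the 6-week strain difference of Htr1b to 0.30 (limma adjusted p = 0.00556) and the interaction to -0.36 (0.0481). Leaving out BPN/3J replicate 6 of 6 weeks gave a strain difference of 0.27 (limma adjusted p = 0.0471). With the thalamus covariate the Htr1b age difference in BPH/2J was -0.19 ± 0.12 (limma adjusted p = 0.605) and the 6-week strain difference 0.11 ± 0.12 (0.996). Of the 10 analysed neighbours of Htr1b, 1 passed at each age, against 7.42% of all genes at 6 weeks and 2.67% at 26 weeks. This was Filip1, which codes for a filamin-interacting protein. It was higher in BPH/2J by 0.68 ± 0.11 at 6 weeks and 0.95 ± 0.11 at 26 weeks.

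Htr1a, the receptor that inhibits the firing of serotonin neurons and is the target of buspirone, did not differ between groups beyond its spread. Its lowest, median and highest levels were 6.84, 7.01 and 7.12 in BPH/2J and 6.87, 7.0 and 7.25 in BPN/3J at 6 weeks. In the adults they were 6.67, 6.96 and 7.14 in BPH/2J and 6.44, 7.21 and 7.52 in BPN/3J. The adult BPN/3J arrays held both the lowest and the highest value of all 24. The strain difference was -0.02 ± 0.12 at 6 weeks (95% interval -0.28 to 0.23) and -0.14 ± 0.12 at 26 weeks (-0.40 to 0.11).

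The Gs-coupled receptors Htr4, Htr6 and Htr7 did not pass in any comparison of the fit on all arrays. Htr4, which raises transmitter release and gut motility, had its lowest, median and highest levels at 6.89, 7.02 and 7.17 in BPH/2J and 6.74, 6.89 and 6.93 in BPN/3J at 6 weeks. At 26 weeks they were 6.74, 6.93 and 7.10 in BPH/2J and 6.72, 7.05 and 7.19 in BPN/3J. The strains thus overlapped at both ages, with the median higher in BPH/2J in young mice and lower in adult ones. The difference was 0.16 ± 0.07 at 6 weeks (limma adjusted p = 0.226) and -0.10 ± 0.07 at 26 weeks (0.651), and the interaction -0.26 ± 0.10 (0.313). With age Htr4 differed by 0.16 ± 0.07 in BPN/3J (limma adjusted p = 0.141), and this passed without BPN/3J replicate 6 of 26 weeks (0.22, 0.0252). With a term for the 26-week array set it was 0.23 ± 0.06 (limma adjusted p = 0.00622), and with the choroid plexus marker mean as a covariate 0.09 ± 0.08 (0.592). Of 14 choroid plexus markers, 3 rose with age in BPN/3J and 0 fell, against 12.3% of all genes called. Their median difference was 0.67, and their part in the Htr4 difference was not tested.

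Htr7, which codes for a receptor with a known role in circadian timing, had its lowest, median and highest levels at 7.99, 8.17 and 8.26 in BPH/2J and 7.95, 8.15 and 8.37 in BPN/3J at 6 weeks. At 26 weeks these were 7.79, 8.11 and 8.38 in BPH/2J and 7.66, 7.96 and 8.07 in BPN/3J. Adult BPN/3J had the lowest mean of the 4 groups, 7.92 ± 0.17 (SD, n = 6), with all groups overlapping. The age difference in BPN/3J was -0.24 ± 0.09 (limma adjusted p = 0.0858) and the strain difference at 26 weeks 0.18 ± 0.09 (0.438). With a term for the 26-week array set the former was -0.27 ± 0.10 and passed (limma adjusted p = 0.0296). With the choroid plexus covariate it was -0.16 ± 0.10 (limma adjusted p = 0.447), and with the habenula and striatum covariates -0.19 ± 0.09 and -0.19 ± 0.08 (0.168 and 0.161).

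Htr6, a receptor enriched in the striatum, had group means of 5.69 ± 0.12 and 5.63 ± 0.23 at 6 weeks in BPH/2J and BPN/3J, and 5.62 ± 0.18 and 5.58 ± 0.10 at 26 weeks (SD, n = 6). Its arrays ran from 5.37 to 6.00 with all groups overlapping. The strain difference was 0.06 ± 0.09 at 6 weeks (95% interval -0.13 to 0.25) and 0.05 ± 0.09 at 26 weeks (-0.14 to 0.24).

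Htr5b, the second Htr5 gene, which is intact in mice and not in humans, varied more between arrays than between strains. At 6 weeks its lowest, median and highest levels were 5.09, 5.24 and 5.54 in BPH/2J and 5.23, 5.40 and 6.34 in BPN/3J. In the adults these were 5.16, 5.50 and 6.22 in BPH/2J and 5.45, 5.81 and 6.53 in BPN/3J. In each group but young BPH/2J, 1 to 3 arrays stood above 6. The strain difference was -0.30 ± 0.20 at 6 weeks (limma adjusted p = 0.497) and -0.24 ± 0.20 at 26 weeks (0.72). The age difference was 0.37 ± 0.20 in BPH/2J (limma adjusted p = 0.213) and 0.30 ± 0.20 in BPN/3J (0.317). With a term for the 26-week array set, which sets the larger set against the 6-week arrays, the former was 0.51 ± 0.20 (limma adjusted p = 0.0451). It was smaller and did not pass with the striatum (0.20 ± 0.19, limma adjusted p = 0.562), choroid plexus (0.25 ± 0.14, 0.257), habenula (0.26 ± 0.10, 0.0711) or cortex and hippocampus covariate (0.28 ± 0.22, 0.507).

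Htr5b went up and down with markers of the medial habenula, a small nucleus next to the thalamus and outside the hypothalamus. The marker mean of 9 genes was 6.58 to 6.89 in young BPH/2J, 6.64 to 7.59 in young BPN/3J, 6.44 to 7.57 in adult BPH/2J and 6.40 to 7.93 in adult BPN/3J. Over deviations from group means on 24 arrays, r was 0.89 and rho 0.81 (permutation test, p = 1e-05, the smallest that 100000 resamples can give, and 2e-05). Adjusted over the 130 relations these were 0.0013 and 0.0026. Without the 2 arrays farthest from the median of the marker mean r was 0.90, over the 12 arrays of 6 weeks 0.89, and over the 8 arrays of the larger 26-week set 0.93. The smaller 26-week set, with 4 arrays, was too small for a value of its own. With the habenula marker mean as a covariate the strain differences of Htr5b were -0.06 ± 0.10 at 6 weeks and 0.10 ± 0.10 at 26 weeks.

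The genes most like Htr5b over arrays were Chrnb4 (r = 0.89) and Nwd2 (0.88), both members of the habenula marker list, and the first codes for a nicotinic acetylcholine receptor subunit. Htr5b also correlated with choroid plexus markers (r = 0.73, rho = 0.77, permutation test adjusted p = 0.0052 and 0.00325). That relation was weak at 6 weeks (r = 0.21, 12 arrays) and strong in the larger 26-week set (r = 0.87, 8 arrays). Without the 2 arrays farthest from the median it was 0.63. Of the 130 relations, these 2 passed with both coefficients, 1 passed with r alone and 12 with rho alone. The former was Htr4 with microglia markers (r = 0.68, adjusted p = 0.023; rho = 0.49, adjusted p = 0.114, permutation test), and r was 0.46 without the 2 farthest arrays. The 12 relations that passed with rho alone include 4 of Htr2a, given with that gene, and 1 of Htr1d with raphe markers. The adjusted p of r lay above 0.05 in all 12. Htr7 had 4 (permutation test): raphe markers (rho = -0.63, adjusted p = 0.0294), thalamus (0.58, 0.0435), astrocyte (-0.57, 0.0469) and medial habenula markers (-0.56, 0.0491). The other 3 were Htr5b with endothelium markers (rho = 0.68, permutation test adjusted p = 0.0169), Htr4 with ependymal and tanycyte markers (0.59, 0.0435) and Htr2c with hypothalamus markers (-0.58, 0.0435).

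**Figure D4:**
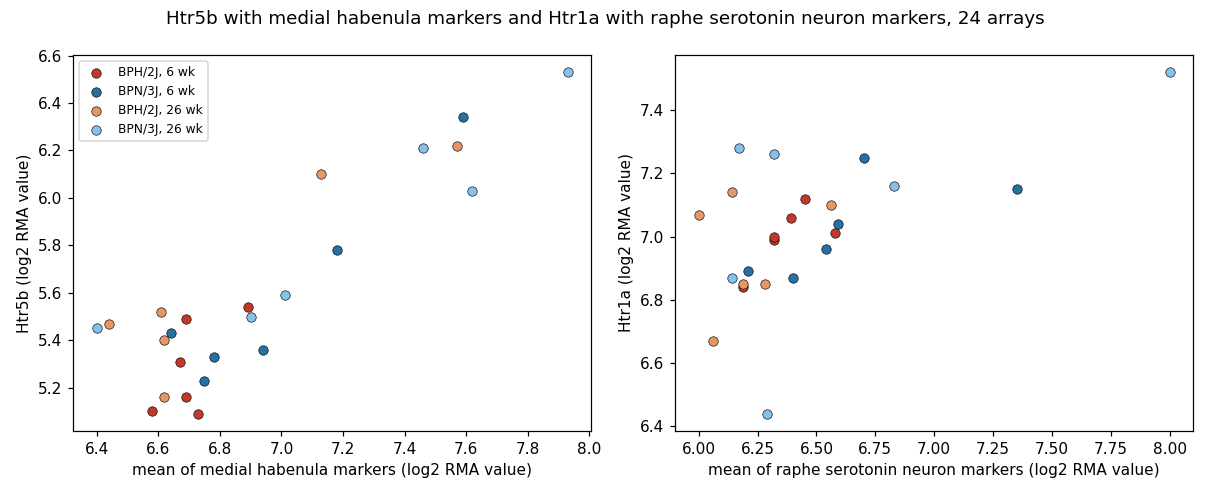
Level of Htr5b against the mean of 9 medial habenula markers (left) and of Htr1a against the mean of 8 raphe serotonin neuron markers (right), both axes in log2 RMA values, with 1 point per array. Htr5b is high where the habenula markers are high (r = 0.89 over deviations from group means). Htr1a has its highest value, 7.52, on the array with the highest raphe marker mean, 8.0. Its relation with the raphe markers did not pass (r = 0.56, permutation test adjusted p = 0.0952), and r was -0.02 in the larger 26-week set.

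Among the genes most like the other receptors, over deviations from group means on 24 arrays, were Endod1 for Htr2c (r = 0.89), Sde2 for Htr4 (0.89) and Calb1, a calcium-binding protein, for Htr7 (0.82). For Htr6 it was Foxr1 (r = 0.81), for Htr1a Smoc1 (0.80), for Htr5a Dact3 (0.78), for Htr1d Ankrd34b (0.78) and for Htr1b Ly6m (0.75). Among the receptors themselves the highest r was 0.67, between Htr2a and Htr4. The lowest was -0.47, for Htr1d with Htr7 and for Htr2c with Htr4. All these genes share the same arrays and their RNA makeup, so the values are descriptions.

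The other analysed serotonin receptor genes were Htr1f, Htr2b, Htr3a and Htr3b, and 0 of 4 passed in the strain, age or interaction comparisons in limma's test. Over all genes 7.42% passed for the strains at 6 weeks and 2.67% at 26 weeks. With age 16.9% passed in BPH/2J and 12.3% in BPN/3J, and 0.0301% for the interaction. At an unadjusted p below 0.05 it was 2 of these 4 receptor genes, Htr3a and Htr3b, for the strains at each age. The share of all genes was 18.1% at 6 weeks and 12.5% at 26 weeks. Htr2b, a Gq-coupled receptor of heart and gut, was at or below the unnamed median on all 24 arrays (3.56 to 4.19). Htr3a, a subunit of the serotonin-gated ion channel, differed by -0.19 ± 0.09 at both ages. Htr3b, its partner subunit, differed by 0.21 ± 0.09 at 6 weeks and 0.22 ± 0.09 at 26 weeks. Averaged over ages, Htr3b passed as higher in BPH/2J (0.22 ± 0.07, limma adjusted p = 0.0391) and Htr3a did not (-0.19 ± 0.06, 0.0702). Htr3b was dim, with 4 adult BPN/3J arrays at or below the unnamed median.

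Serotonin synthesis, transport and breakdown was followed through 14 analysed genes. At 6 weeks 0 were higher and 1 lower in BPH/2J, against 7.42% of all genes called. At 26 weeks 0 of 14 passed, against 2.67% of all genes. At an unadjusted p below 0.05 it was 3 of 14 at 26 weeks, against 12.5% of all genes. The gene that passed at 6 weeks was Qdpr, an enzyme that recycles the cofactor of tryptophan hydroxylase (-0.37 ± 0.09, limma adjusted p = 0.0124). With age, Maob, a mitochondrial enzyme that breaks down amines, rose in BPH/2J by 0.79 ± 0.14 (limma adjusted p = 0.000636). Slc29a4, a low-affinity monoamine transporter, fell there by 0.48 ± 0.11 (limma adjusted p = 0.00533). In BPN/3J, Qdpr fell with age by 0.39 ± 0.09 (limma adjusted p = 0.0112).

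Tph2, the rate-limiting enzyme of serotonin synthesis in neurons, and Slc6a4, the serotonin transporter, are normally made in raphe cell bodies. Tph2 was between 4.01 and 4.53 on 22 arrays but 7.03 on BPN/3J replicate 1 of 6 weeks and 8.17 on BPN/3J replicate 5 of 26 weeks. Slc6a4 was 6.34 and 7.45 on the same arrays against 4.82 to 5.66 on the other 22. The raphe marker mean was 7.35 and 8.0 there and 6.00 to 6.83 elsewhere. On the other 22 arrays Tph2 lay below every array median of the unnamed probe sets (4.6 to 5.25). Slc18a2, another gene of the raphe list, ran from 6.94 to 9.39 on those 22. Whether the raphe marker mean follows raphe content on them was not tested. The array with the marker mean of 8.0 also had the highest Htr1a level, 7.52. Htr1a and the raphe marker mean had r = 0.56 and rho = 0.44 over deviations on 24 arrays (permutation test, adjusted p = 0.0952 and 0.165) and r = 0.38 without the 2 farthest arrays. Over the 12 arrays of 6 weeks r was 0.68, and over the 8 arrays of the larger 26-week set -0.02. Without the 2 arrays high in Tph2 the Htr5a difference was -0.44 ± 0.08 at 6 weeks and -0.46 ± 0.08 at 26 weeks. Both were past the threshold (limma adjusted p = 0.000855 and 0.000753).

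**Figure D5:**
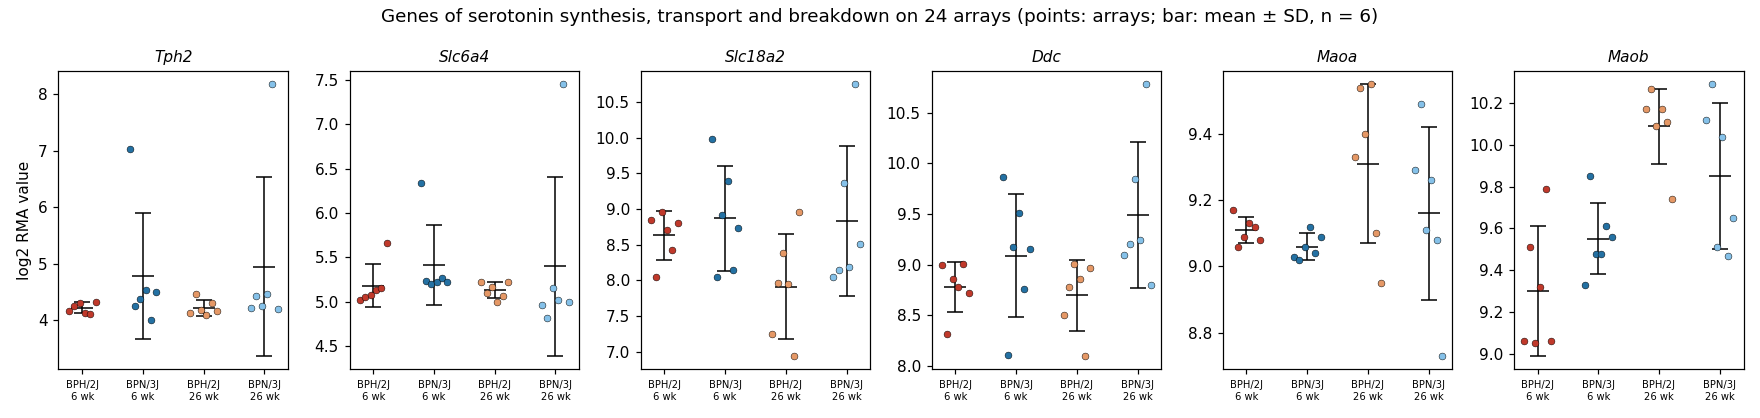
Level of 6 genes of serotonin synthesis, transport and breakdown (log2 RMA value, y axis, own scale per gene) on each array, by strain and age (x axis); points are arrays and bars the mean ± SD of n = 6. Tph2 and Slc6a4 are high on 1 array of each BPN/3J group, at 7.03 and 8.17 for Tph2, and Maob is higher at 26 than at 6 weeks in BPH/2J.

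Receptor partners, which edit receptor RNA, anchor the proteins or end their signal, were followed through 25 analysed genes. At 6 weeks 0 were higher and 5 lower in BPH/2J, against 7.42% called over all genes, with a median difference of -0.06 against 0.01. The 4 with the smallest p were Adarb2 (-1.0 ± 0.12) and Adarb1 (-0.72 ± 0.14), of the adenosine deaminase gene family, and Rgs4 (-0.87 ± 0.13) and Rgs8 (-0.38 ± 0.09), which switch off G proteins. Editing of Htr2c RNA was not measured, nor whether Adarb2 takes part in it. At 26 weeks 1 was higher and 2 lower, against 2.67% of all genes. Gipc1, a scaffold protein, was higher by 0.32 ± 0.06, and Adarb2 (-0.55 ± 0.12) and Rgs4 (-0.48 ± 0.13) were lower. Adarb1 is also a member of the thalamus marker list. With age 6 rose and 2 fell in BPH/2J, against 16.9% of all genes. Among them were Rgs7 (0.54 ± 0.10), Rgs8 (0.44 ± 0.09) and the receptor kinase Grk5 (0.67 ± 0.14). In BPN/3J 0 rose and 4 fell, against 12.3% of all genes, led by Gipc1 (-0.35 ± 0.06) and the kinase Fyn (-0.26 ± 0.07).

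G proteins and effectors were followed through 43 analysed genes. At 6 weeks 3 were higher and 5 lower in BPH/2J, against 7.42% of all genes, with a median difference of 0.02 against 0.01. The 4 with the smallest p were Adcy1, an adenylyl cyclase (-1.17 ± 0.18), Gnal, a stimulatory G protein (-0.53 ± 0.10), Plcb4, a phospholipase C (-0.52 ± 0.11), and Pde4d, which breaks down cyclic AMP (-0.28 ± 0.06). At 26 weeks 0 were higher and 1 lower, against 2.67% of all genes. This was the potassium channel subunit Kcnj6 (-0.29 ± 0.07), through which Gi-coupled receptors such as Htr1a act. With age 8 rose and 8 fell in BPH/2J, 37.2% of the list against 16.9% of all genes, led by Adcy3 (-0.37 ± 0.06) and Gnal (0.58 ± 0.10). In BPN/3J 1 rose, Kcnj6 (0.41 ± 0.07), and 5 fell, against 12.3% of all genes, led by Gna12 (-0.63 ± 0.10).

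Beside these list counts stand the thalamus markers. With the thalamus marker mean as a covariate, 0 genes of the pathway lists passed at 6 weeks, against 14 without it, and 0 with age in BPH/2J, against 26. Over all genes the count was 157 with the covariate and 1479 without it at 6 weeks, and 7 and 3362 with age in BPH/2J. The marker means of the young groups overlapped only through BPH/2J replicate 2 (9.10, against a lowest value of 9.08 in BPN/3J), so thalamus content and strain can hardly be told apart at that age. Htr5a was the receptor gene that passed at 6 weeks with and without the covariate.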

How the data were processed

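The deposited table holds log2 values made by the authors with RMA, which subtracts background, equalises the arrays' distributions and summarises each probe set, per the submitters' processing notes. Those notes list limma too. Tool versions, the array annotation and a genome build: not given in the sources used here. It has 34760 probe sets, of which 21640 had 1 gene symbol in the platform annotation, 1321 several and 11799 none. Each gene kept its probe set with the highest mean, which gave 19937 genes, and probe sets without a single symbol stayed out of the tests. RMA leaves differences relative to the other genes of an array, and the number of arrays limits the precision.

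Groups and replicate numbers came from the titles. limma 3.58.1 in R 4.3.3 fitted a mean per group on all 24 arrays (20 residual degrees of freedom, moderated statistics). p-values were adjusted by Benjamini and Hochberg's method over all genes of a contrast, with a threshold of 0.05, and errors beside differences are standard errors of the fit. The fit was also run on simulated data in which known genes changed. Noise there was drawn independently for each gene, so differences that arrays share over many genes, such as regional content, were not covered. Correlations used deviations from group means and 100000 permutations, which shuffled all 24 arrays without regard to group or array set. Spread differed between groups. The SD of the choroid plexus marker mean was 0.12 in 6-week and 1.07 in 26-week BPN/3J. The permutation p-values are therefore approximate. Neighbouring genes and promoters came from RefSeq tables of GRCm38.p6, which is not known to be the array's build.

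All receptor genes were tested in each contrast, and not every difference that did not pass is given. Of the partner and effector lists, up to 4 called genes per contrast were named, smallest p first. Neighbours were looked at for Htr5a, Htr2c, Htr1b and Htr1d, and the nearest or called ones were named after their values were seen. The receptor genes and the lists were chosen with earlier results of these data known. Alternatives changed the samples fitted, normalisation, filter, weights, marker covariates, the replicate number as a block and the arrays kept. A sign change counted as a reversal only where a value passed the threshold. No array was left out of the values reported first. Whether replicate numbers pair arrays was looked at through correlations of their deviations from group means. Same-numbered 26-week arrays of the strains deviated together, with r of 0.13 to 0.44 and over 0.1 in 6 of 6 pairs. Replicates 5 and 6 of both strains are also the smaller 26-week set, and arrays of unlike numbers were not compared. Whether the numbers pair these arrays thus cannot be told. At 6 weeks r was -0.23 to 0.05, and between ages in BPN/3J -0.10 to 0.05. Between ages in BPH/2J it was 0.01 to 0.41 and over 0.1 in 4 pairs, although these are different mice.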

Additional observations from a re-analysis of the deposited data

Results flagged for a closer look

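In 40 groups of 6 values (10 receptor genes in 4 groups), 2 held an array far from the rest by Dixon's test, and chance alone gives about 1 in 20. Htr1b on 6-week BPN/3J replicate 6 was 8.54, with the other 5 arrays at 8.26 to 8.35. Htr2a on 26-week BPN/3J replicate 6 was 7.39, with the other 5 at 7.90 to 8.09. The latter array belongs to the smaller 26-week set.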

How the results depend on the processing

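Of 910 values of the receptor genes under alternative settings, 883 kept their side of the threshold, 4 lost it, 23 gained it and 0 reversed. Most of the 60 receptor results did not pass at first, so most of the 883 stayed short of the threshold. The total thus does not measure how stable the calls are. A sign change short of the threshold counts among the 883, as for Htr2a at 6 weeks with the thalamus covariate (0.30 to -0.14). Settings on array sets, raphe and striatum markers and the contrast averaged over ages were chosen after seeing the data. Receptor genes that passed, 2 at 6 weeks, 1 at 26 weeks, 1 with age in BPH/2J and 0 with age in BPN/3J, became as follows. At 6 weeks 6 passed with array weights, 3 with only the groups compared (Htr1d added, limma adjusted p = 0.0485), 3 with the term for the 26-week array set (Htr1b added, 0.0478) and 1 with the thalamus covariate. At 26 weeks 2 passed with the replicate block, with arrays shifted to the same median or with a term for the 26-week array set, and 0 in the smaller set alone. With age in BPH/2J 2 passed with the replicate block, shifted medians, a filter on dim genes, trend and robust moderation, array weights, the set term, or choroid plexus, medial habenula or striatum covariates, and 0 with the thalamus covariate. With age in BPN/3J 2 passed with array weights or the set term. Averaged over ages 3 passed, and 2 with the raphe covariate. Pathway list genes that passed were 14 at 6 weeks, 4 at 26 weeks, 0 for the interaction, 26 and 11 with age in BPH/2J and BPN/3J, and 15 averaged over ages. With array weights these were 28 at 6 weeks, 9 for the interaction, and 42 and 27 with age. With the set term they were 4 for the interaction and 40 and 28 with age. With the thalamus covariate they were 0 at 6 weeks, 0 with age in BPH/2J and 6 averaged over ages. With the cortex and hippocampus covariate they were 16 with age in BPH/2J and 9 averaged. With the choroid plexus covariate 4 passed with age in BPN/3J. For the interaction 1 passed with trend and robust moderation or with the raphe or striatum covariate. At 26 weeks 2 passed with only the groups compared and 0 in the smaller set. Leaving out 1 array gave 1 to 3 receptor genes at 6 weeks, 1 to 2 at 26 weeks, 0 to 1 for the interaction, 1 to 2 and 0 to 1 with age in BPH/2J and BPN/3J, and 3 in every fit of the averaged contrast. For the pathway lists it gave 13 to 20, 2 to 5, 0 to 7, 19 to 32, 7 to 19 and 11 to 19, in the same order.

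Counts over all genes moved by over 1.5 times in places. At 6 weeks 1479 became 2322 with only the groups compared, 3725 with array weights and 157 with the thalamus covariate. At 26 weeks 532 became 248 with only the groups compared, 881 with the set term, 894 with the raphe covariate and 223 in the smaller set. With age in BPH/2J 3362 became 7475 with array weights, 7479 with the set term, 7 with the thalamus, 1233 with the cortex and 1980 with the striatum covariate. With age in BPN/3J 2445 became 6416 with array weights, 7325 with the set term and 189 with the choroid plexus, 1479 with the cortex, 1550 with the habenula and 1474 with the striatum covariate. Averaged over ages 1555 became 2502 with array weights and 693 with the thalamus covariate. The interaction, with 6 genes, ranged from 0 with the thalamus covariate to 683 with array weights. Leaving out 1 array gave 1034 to 1961 genes at 6 weeks, 428 to 721 at 26 weeks, 0 to 496 for the interaction, 2138 to 4838 and 1034 to 4230 with age in BPH/2J and BPN/3J. The cause of these moves was not tested.

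A replicate block on the 26-week arrays alone kept Htr5a past the threshold (-0.47 ± 0.07, limma adjusted p = 0.00749) and changed no receptor call there. The 2 receptor genes at 26 weeks under the block on all arrays were Htr5a and Htr1d (limma adjusted p = 0.0208). At 6 weeks that block gave 3, with Htr1d past the threshold too (limma adjusted p = 0.0297).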
